A study of Mus musculus with 16 samples.

Results

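The protocadherins are the largest family of cadherin-related adhesion molecules. The 30 protocadherin genes described here are those whose symbol in the array's annotation starts with Pcdh, apart from Pcdh10, out of 19505 genes measured. Probe sets annotated with several symbols, or with none, had been left out beforehand. They fall into 20 genes of the Pcdhb cluster, Pcdhb1 to Pcdhb20, and 10 genes outside the clusters, namely Pcdh1, Pcdh7, Pcdh8, Pcdh9, Pcdh11x, Pcdh12, Pcdh17, Pcdh18, Pcdh19 and Pcdh20. Each was measured by 1 probe set. The Pcdha and Pcdhg clusters were not analysed here. The symbols alone set which genes these are.

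Clustered protocadherins are chosen from their gene arrays cell by cell, and the resulting combination of proteins gives a neuron a surface identity that like cells recognise. Olfactory sensory neurons use this code when their axons spread within the olfactory bulb. The protocadherins outside the clusters each have a gene of their own elsewhere in the genome. Many of them are delta-protocadherins, with roles in axon growth, cell sorting and synapses.

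Affymetrix arrays read the RNA of cells sorted from the olfactory mucosa, in 16 libraries. The 24 mice, of both sexes and 7 to 12 weeks old, were C57BL/6 animals that all carried the S100a5-tauGFP reporter. S100a5 encodes a calcium-binding protein that activity induces in olfactory sensory neurons, so green fluorescent protein (GFP) marks recently active neurons. Each mouse spent 40 h alone in a chamber of clean air, and from 26 h onward 10 s pulses came every 20 min. In the odor group the pulses carried isoamyl acetate with whiskey lactone, and in the vehicle group they were filtered air. Each pool held the cells of 3 mice, and sorting split each of the 8 pools into a GFP+ and a GFP- library. The 4 groups (odor or vehicle, GFP+ or GFP-) therefore held 4 libraries each, and both libraries of a pool came from the same mice.

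The labels disagree about the fractions. For each of the 16 samples the tag for cell type gives one fraction and the title the other, so the text writes "titled GFP+" and "titled GFP-", and every fraction difference given below changes sign if the tags are right. S100a5 itself was lower in the titled GFP+ library of all 4 odor pools (15.39, 15.11, 15.05 and 15.55, against 16.04, 16.66, 16.55 and 16.48 on the deposited log2 scale). In vehicle pool 3 it lay the other way, at 16.37 in the titled GFP+ and 14.99 in the titled GFP- library. In S100a5 that pool ran opposite to the remaining 7 pools, so counts are given over all 16 arrays and over the 14 arrays without it. Cell type markers, given further below, were also in reverse order in that pool. Odor differences are the same in both sets, apart from their errors, and vehicle values with the pool included are named as over 16 arrays. Differences are titled GFP+ minus titled GFP-, or odor minus vehicle, on the deposited log2 scale. They are not folds, because the deposited values went above 16, the log2 limit of a 16-bit scanner. "Adjusted p" is limma's p after Benjamini-Hochberg adjustment over the 19505 genes, and a gene passed at an adjusted p under 0.05. The labels do not say whether pools shared litters or sorting days, so p-values measure only the spread between these pools.

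Most protocadherins read above the median of the arrays' negative probe sets, which was 5.46. Of the 30 genes, 23 lay above it in all 16 libraries. Pcdhb2 was above it in 7 libraries, Pcdhb3 in 14 and Pcdhb12 in 15. Pcdh12, a protocadherin of blood vessel lining, Pcdh18, Pcdh20 and Pcdhb10 were not above it in any library. The 95th percentile of the negative probe sets was far higher, at 9.79. Only Pcdh1, Pcdh7, Pcdh8, Pcdh17, Pcdh19 and Pcdhb1 exceeded that in all 16 libraries. Pcdhb14 did so in 12 libraries and Pcdhb20 in 3, while Pcdhb2, Pcdhb3, Pcdhb13 and Pcdhb15 did so in 0. Probe brightness differs between probe sets, so no gene's level is set against another's.

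Between the sorted fractions of the odor pools, Pcdh7 and Pcdh8 stood at the lower end of the family's differences, and the whole Pcdhb cluster lay on the same side. Over 14 arrays 9 protocadherins passed, all lower in the titled GFP+ libraries: Pcdh7, Pcdh8, Pcdh18, Pcdhb2, Pcdhb3, Pcdhb13, Pcdhb14, Pcdhb15 and Pcdhb20. Over 16 arrays the same genes without Pcdhb3 passed, which makes 8. With the pool of mice as a block 8 passed over 14 arrays and 0 over 16, and over 16 arrays 0 also passed when any odor library other than titled GFP+ library 4 was left out (3 without that one). Of all genes, 4.59% passed as lower and 8.59% as higher over 14 arrays, and 2.39% and 4.57% over 16. No protocadherin passed as higher in odor pools. In the same pools all 7 measured myeloid markers passed as higher in titled GFP+ (library means of 9.88 to 12.27 against 5.53 to 7.05), and their part in the protocadherin differences was not tested. In sorted libraries, fewer cells of a type and less RNA per cell cannot be told apart.

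Pcdh7, a delta-protocadherin known from axon growth in the visual system, stood at 11.29, 11.13, 11.21 and 11.19 in the titled GFP+ libraries of odor pools 1 to 4. In the titled GFP- libraries of the same pools it stood at 12.92, 12.47, 12.10 and 12.55. The titled GFP+ values sat in a narrow band below every titled GFP- value. The difference was -1.30 (SE 0.18, adjusted p = 8.25e-05 over 14 arrays, and 0.0286 over 16). In vehicle pools 1, 2 and 4 Pcdh7 stood at 11.63, 11.55 and 11.24 in the titled GFP+ and at 12.17, 12.60 and 12.72 in the titled GFP- libraries. The vehicle groups did not overlap either, and their difference was -1.02 (SE 0.21, adjusted p = 0.00288 over 14 arrays). Vehicle pool 3 read 11.72 in titled GFP+ and 11.23 in titled GFP-, which is the reverse order.

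Pcdh8, also called arcadlin, is a delta-protocadherin that neuronal activity induces in the hippocampus and that helps draw N-cadherin in from synapses. In the odor pools it stood at 10.53, 10.84, 10.89 and 10.55 in the titled GFP+ libraries. The titled GFP- libraries gave 12.45, 11.92, 12.02 and 11.72, all above the titled GFP+ values. The difference was -1.32 (SE 0.18, adjusted p = 8.79e-05 over 14 arrays, and 0.0286 over 16). Vehicle pools 1, 2 and 4 gave 11.01, 10.35 and 10.49 in titled GFP+ and 11.53, 11.50 and 11.62 in titled GFP-. This difference was -0.93 (SE 0.21, adjusted p = 0.00688 over 14 arrays), again without overlap. In vehicle pool 3 Pcdh8 read 11.89 in titled GFP+ and 10.93 in titled GFP-.

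**Figure D1:**
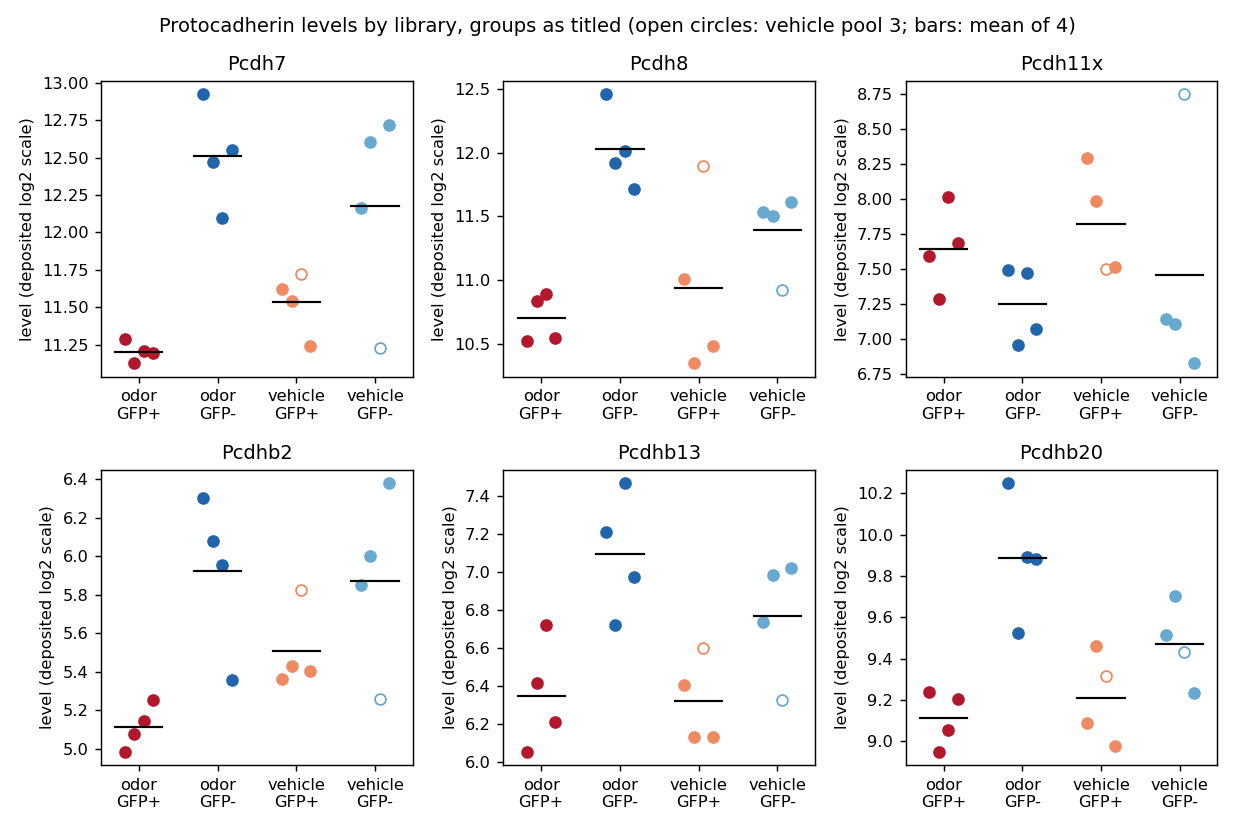
Level (deposited log2 scale, vertical axis) of Pcdh7, Pcdh8, Pcdh11x, Pcdhb2, Pcdhb13 and Pcdhb20 in each library, by treatment and titled fraction, with bars at the mean of 4 libraries. The open circles are vehicle pool 3, and in the odor pools all titled GFP+ points of Pcdh7 and Pcdh8 sit below all titled GFP- points.

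The sequences before the starts of these genes are shown because Pcdh7 and Pcdh8 had the lowest fraction differences of the family in both treatments over 14 arrays. They come from RefSeq (GRCm38.p6), whose promoter table matched 7 of the 30 protocadherins by symbol. Capitals mark CpG pairs, and each run holds the 250 bases before the start, read along the gene's strand. Pcdh7 lies on the plus strand of chromosome 5 (chr5:57717831-57718080) and Pcdh8 on the minus strand of chromosome 14 (chr14:79771313-79771562).
Pcdh7: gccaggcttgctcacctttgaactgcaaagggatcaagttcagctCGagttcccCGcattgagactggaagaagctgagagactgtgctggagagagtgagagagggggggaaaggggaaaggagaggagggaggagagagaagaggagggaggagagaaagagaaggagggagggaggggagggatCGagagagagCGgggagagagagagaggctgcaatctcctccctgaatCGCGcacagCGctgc
Pcdh8: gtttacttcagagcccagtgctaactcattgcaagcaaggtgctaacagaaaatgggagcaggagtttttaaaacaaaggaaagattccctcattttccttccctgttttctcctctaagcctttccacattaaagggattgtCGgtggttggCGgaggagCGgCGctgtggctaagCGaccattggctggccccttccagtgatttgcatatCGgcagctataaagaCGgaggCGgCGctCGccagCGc

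Over the 300-base window from 250 bases before to 50 after the start, Pcdh7 had a GC content of 59.3% with 11 CpG pairs and Pcdh8 one of 54.3% with 14. The medians of all 32851 promoter windows were 52.7% and 7. Much of the Pcdh7 stretch is a run of a and g. A search on both strands used the cyclic AMP response element TGACGTCA (in 1.79% of all windows), its overlapping core TGACG (20.8%), the Ebf family core (0.904%), the homeodomain core TAATTA (5.29%) and the E-box CACGTG (7.15%). The TATA box TATAAA (13.6%) and the octamer ATGCAAAT (1.74%) were added after the windows had been read. Pcdh7 held none of these letters. Pcdh8 held TATAAA starting 30 bases before the start and the octamer, on the opposite strand, starting 47 bases before it. These are matches of letters and say nothing of binding.

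Pcdh17, a delta-protocadherin of axon bundles and synapses, was lower by less. Its odor values were 11.24, 10.51, 10.97 and 10.83 in titled GFP+ and 12.22, 11.16, 11.25 and 11.60 in titled GFP-. The groups overlapped by the 11.24 of pool 1. The difference of -0.67 (SE 0.23) did not pass (adjusted p = 0.0692 over 14 arrays), and it passed with the pool as a block (0.0269). In vehicle pools 1, 2 and 4 the difference was -0.60 (SE 0.26, adjusted p = 0.192), without overlap between the fractions, and it was -0.32 over 16 arrays. All 4 odor pools and these 3 vehicle pools had the lower value in titled GFP+.

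Pcdh1, a protocadherin of epithelia as well as neurons, and Pcdh9, found in cortex and retina, did not pass. Pcdh1 was lower in the titled GFP+ library in all 8 pools, with differences of -0.57 (SE 0.27, adjusted p = 0.207) in odor and -0.40 (SE 0.31, adjusted p = 0.503) in vehicle pools over 14 arrays. Pcdh9 was likewise lower in all 8 pools, by -0.53 (SE 0.23, adjusted p = 0.163) in odor and -0.66 (SE 0.26, adjusted p = 0.142) in vehicle pools. Over 16 arrays the vehicle differences were -0.44 for Pcdh1 and -0.50 for Pcdh9. In both genes odor pool 1 had the widest gap among the odor pools, -1.41 for Pcdh1 and -1.06 for Pcdh9. The gap in odor pool 3 was -0.08 for Pcdh1 and -0.06 for Pcdh9.

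Pcdh11x, an X-linked delta-protocadherin, ran the other way. Vehicle pools 1, 2 and 4 gave 8.30, 7.99 and 7.52 in titled GFP+ and 7.14, 7.11 and 6.83 in titled GFP-. It passed there as higher in titled GFP+ (0.91, SE 0.23, adjusted p = 0.0167 over 14 arrays). That call rested on the scaling and on single libraries: adjusted p was 0.0757 after centring each array on its median and 0.103 after quantile normalization, and it reached 0.0973 when vehicle titled GFP+ library 1 or 2 or titled GFP- library 4 was left out, each of which ended the call. In odor pools the difference was 0.40 (SE 0.20, adjusted p = 0.252), with 7.60, 7.28, 8.01 and 7.69 in titled GFP+ overlapping 7.50, 6.96, 7.48 and 7.07 in titled GFP-. Vehicle pool 3 had the opposite gap, 7.50 against 8.75.

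Pcdh19, the X-linked gene of an epilepsy that mainly affects females, differed between the fractions by 0.28 (SE 0.18, adjusted p = 0.391) in odor and 0.23 (SE 0.21, adjusted p = 0.578) in vehicle pools over 14 arrays. With vehicle pool 3 included the vehicle difference was -0.03. Centring, which shifts all genes alike, gave -0.07 and -0.13. Its levels spanned 10.06 to 11.09 over the 16 libraries.

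The 3 genes outside the clusters that were never above the negative median had small differences. Pcdh18 passed in odor pools (-0.52, SE 0.14, adjusted p = 0.0247 over 14 arrays), from 3.30, 3.15, 3.39 and 3.19 against 3.84, 3.81, 3.39 and 4.06. All these values are under the negative median of 5.46, the fractions meet at 3.39, and with the pool as a block the adjusted p was 0.0620, and the call was lost in 6 of 14 cases with 1 library left out. Pcdh12 differed by -0.24 (SE 0.17, adjusted p = 0.456) and Pcdh20 by 0.16 (SE 0.17, adjusted p = 0.641) in odor pools. Centring gave -0.19 for Pcdh20.

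**Figure D2:**
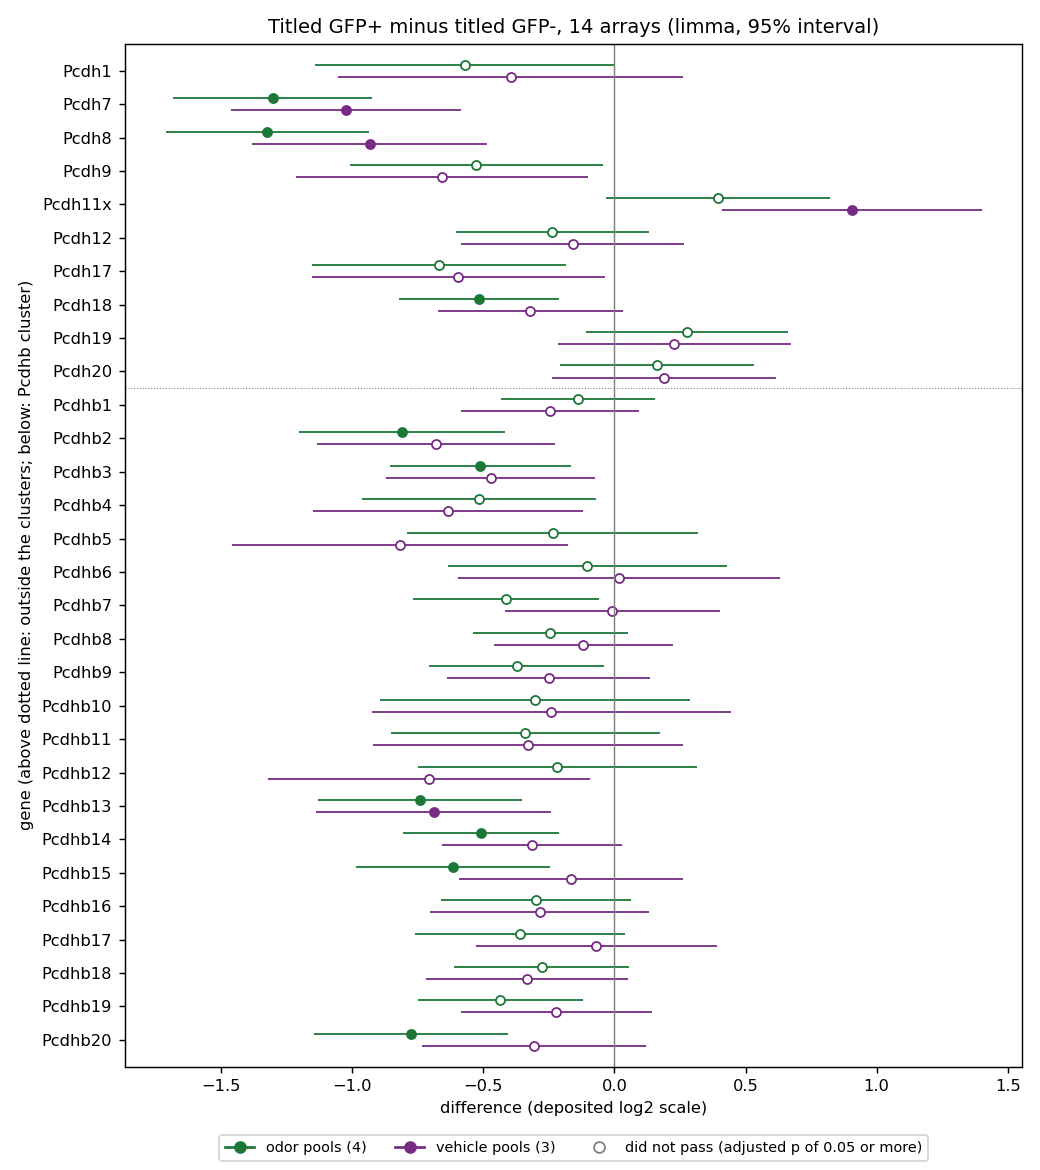
Titled GFP+ minus titled GFP- difference (deposited log2 scale, horizontal axis) of each of the 30 protocadherins over 14 arrays, for the 4 odor pools and 3 vehicle pools, with limma 95% intervals. Filled points passed at an adjusted p under 0.05: 9 in odor pools, all below 0, and 4 in vehicle pools, of which Pcdh11x lies above 0.

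The Pcdhb genes lay on 1 side with small differences. They sit in a row and each makes its protein from a single exon, from which neurons draw an individual set. All 20 differences were below 0 in odor pools, under the deposited scale and after quantile normalization. They stayed below 0 after centring, which lowered every difference and so could not turn them. For comparison, 62.5% of all genes were below 0 on the deposited scale. The 20 genes were read on the same arrays, so they are not 20 independent points. The median Pcdhb difference was -0.37, against -0.08 over all genes and -0.52 over the 10 protocadherins outside the clusters. Centring shifts every gene alike, and took the median of all genes to -0.43 and that of the Pcdhb genes to -0.72. The fractions did not overlap for 8 Pcdhb genes (Pcdhb2, Pcdhb3, Pcdhb7, Pcdhb8, Pcdhb13, Pcdhb14, Pcdhb19 and Pcdhb20) and for Pcdh7 and Pcdh8, together 10 of 30, all lower in titled GFP+. Among all genes 7.6% were lower without overlap. As a share, 6 of 20 Pcdhb genes passed over 14 arrays, beside the 4.59% of all genes that passed as lower.

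Pcdhb20 had the smallest p of the cluster. It stood at 9.24, 8.95, 9.05 and 9.20 in the titled GFP+ and at 10.25, 9.52, 9.89 and 9.88 in the titled GFP- libraries of the odor pools. The lowest titled GFP- value, from pool 2, exceeded every titled GFP+ value, and the difference was -0.78 (SE 0.17, adjusted p = 0.00584 over 14 arrays, and 0.0286 over 16). In vehicle pools 1, 2 and 4 the values were 9.09, 9.46 and 8.98 against 9.51, 9.70 and 9.23. These overlapped, with a difference of -0.31 (SE 0.20, adjusted p = 0.407), which was -0.26 over 16 arrays. Pcdhb20 was lower in the titled GFP+ library in all 8 pools, including vehicle pool 3, and Pcdhb9 and Pcdhb18 were the other Pcdhb genes of which this held.

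Pcdhb13 was the Pcdhb gene that passed in both treatments. Its odor values were 6.05, 6.42, 6.72 and 6.21 against 7.21, 6.72, 7.47 and 6.97. The gap was narrow, since the 6.72 of titled GFP+ pool 3 and that of titled GFP- pool 2 lay side by side. The difference was -0.74 (SE 0.18, adjusted p = 0.0114) in odor and -0.69 (SE 0.21, adjusted p = 0.0468) in vehicle pools over 14 arrays. Vehicle pools 1, 2 and 4 gave 6.41, 6.13 and 6.13 against 6.74, 6.98 and 7.02. Leaving out 1 library ended the vehicle call in 10 of 14 cases, with an adjusted p of up to 0.137.

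Pcdhb2 lay near the negative median. Its titled GFP+ odor values of 4.98, 5.08, 5.14 and 5.25 were all under 5.46, and of the titled GFP- values of 6.30, 6.08, 5.95 and 5.36 only the last was. The difference was -0.81 (SE 0.18, adjusted p = 0.00657 over 14 arrays, and 0.0442 over 16). In vehicle pools 1, 2 and 4 it was -0.68 (SE 0.21, adjusted p = 0.0535), also without overlap, and -0.37 over 16 arrays. In vehicle pool 3 the order was reversed, 5.83 against 5.26.

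Pcdhb14, Pcdhb15 and Pcdhb3 passed in odor pools by less. Pcdhb14 read 9.87, 9.58, 9.64 and 9.55 against 10.00, 10.34, 10.22 and 10.12, a difference of -0.51 (SE 0.14, adjusted p = 0.0228 over 14 arrays). Pcdhb15 read 6.41, 6.51, 6.91 and 6.64 against 6.84, 7.20, 7.56 and 7.33, a difference of -0.62 (SE 0.17, adjusted p = 0.0266). The differences of Pcdhb15 ran from -0.69 to -0.43 in the 4 odor pools, whereas in vehicle pools 1, 2 and 4 its differences were -0.31, -0.20 and 0.01. Pcdhb3 read 5.85, 5.61, 5.32 and 6.07 against 6.22, 6.18, 6.31 and 6.18, a difference of -0.51 (SE 0.16, adjusted p = 0.0489). With the pool as a block Pcdhb3 did not pass (adjusted p = 0.0708). Leaving out 1 library ended the call of Pcdhb3 in 12 of 14 cases and that of Pcdhb14 and of Pcdhb15 in 5 each, while Pcdhb2, Pcdhb13 and Pcdhb20 passed in odor pools in all 14.

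The other 14 Pcdhb genes did not pass in odor pools. Pcdhb1 stood between 15.59 and 16.15 in all 16 libraries and differed by -0.14 (SE 0.14, adjusted p = 0.608). Pcdhb10 stood between 3.59 and 5.15 and differed by -0.30 (SE 0.28, adjusted p = 0.572). Pcdhb5 was uneven over the odor pools, with differences of -0.84, -0.33, -0.11 and 0.34, and did not pass in them (adjusted p = 0.656). In vehicle pools it differed by -0.82 (SE 0.30, adjusted p = 0.109 over 14 arrays), and it passed with the pool as a block (0.0456). Over 16 arrays this difference was -0.47.

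**Figure D3:**
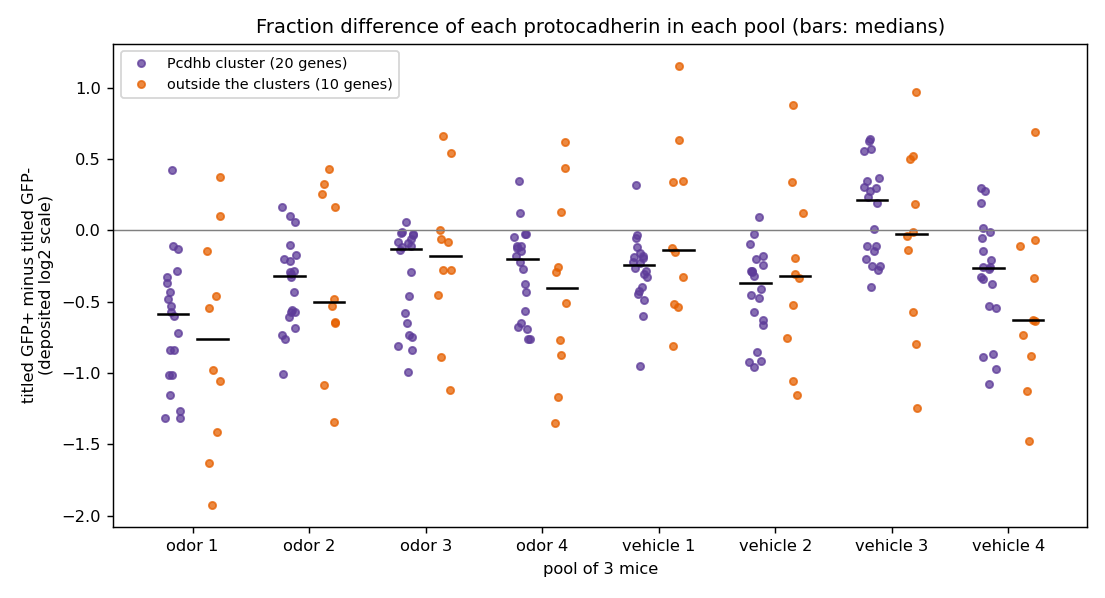
Titled GFP+ minus titled GFP- difference (deposited log2 scale, vertical axis) of each protocadherin in each of the 8 pools, with bars at the medians of the 20 Pcdhb genes and of the 10 genes outside the clusters. The Pcdhb medians lie between -0.59 and -0.13 in 7 pools and at 0.21 in vehicle pool 3.

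Pool by pool, the Pcdhb median was -0.59, -0.32, -0.13 and -0.20 in odor pools 1 to 4. It was -0.25, -0.37 and -0.26 in vehicle pools 1, 2 and 4. Odor pool 1 was the lowest and odor pool 3 the nearest to 0, and 16 to 19 of the 20 genes were below 0 in each of these 7 pools. Over all genes the medians of these 7 pools were -0.104 to -0.045, with 10716 to 11340 of the 19505 genes below 0. Vehicle pool 3 had a Pcdhb median of 0.21 with 8 of 20 genes below 0. Its median over all genes was 0.027, with 9253 of the 19505 below 0.

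In the vehicle pools the family leaned the same way without an odor. Over 14 arrays Pcdh7, Pcdh8 and Pcdhb13 passed as lower and Pcdh11x as higher in the titled GFP+ libraries, so 3 lower and 1 higher. Of all genes 3.32% passed as lower and 7.86% as higher. After centring the split was 19 lower and 0 higher for protocadherins, and 7074 lower and 1323 higher for all genes. After quantile normalization it was 7 lower and 0 higher, and 1253 lower and 1403 higher for all genes. Over 16 arrays no protocadherin passed, and of all genes 0% passed either way. At an unadjusted p under 0.05 in limma there were 5 of 30 protocadherins, beside 1912 of the 19505 genes. With vehicle pool 3 included, Pcdh7 differed by -0.64 (SE 0.26, adjusted p = 0.478), Pcdh8 by -0.46 (SE 0.28, adjusted p = 0.622), Pcdhb13 by -0.45 (SE 0.20, adjusted p = 0.497) and Pcdh11x by 0.37 (SE 0.34, adjusted p = 0.757). Of the Pcdhb genes 19 of 20 were below 0 over 14 arrays, with a median of -0.30 against -0.10 over all genes, and Pcdhb6 (0.02) was below 0 after centring and after quantile normalization. The fractions did not overlap for 15 protocadherins that were lower in titled GFP+ and for Pcdh11x, which was higher, and 14.9% of all genes were lower without overlap in these smaller groups.

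The odor and vehicle fraction differences come from different mice and can be set side by side. Over 14 arrays 29 of the 30 protocadherins had the same sign in both, as did 14831 of the 19505 genes. Over 16 arrays the signs differed for Pcdh19 (0.28 in odor, -0.03 in vehicle), Pcdhb6 (-0.10 and 0.17) and Pcdhb17 (-0.36 and 0.11). The pool left out was chosen because it ran opposite, so likeness over 14 arrays is partly set by that choice. The correlations that follow were taken over 14 arrays only. Across the 10 genes outside the clusters the differences gave a Pearson correlation of 0.94 and a Spearman correlation of 0.95, across the 20 Pcdhb genes 0.31 and 0.20, and across all genes 0.94 and 0.65. Genes of 1 array are not independent points, and the Pcdhb values span a narrow range, so these describe the plots only.

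Odor against vehicle set the treatments side by side within each titled fraction. Sorting followed a reporter that activity induces, so a change in these genes and one in the cells sorted cannot be told apart. No protocadherin passed in either titled fraction, over 16 or 14 arrays, and none did with the pool as a block. In titled GFP+ libraries 1 of 30 had an unadjusted p under 0.05 over 16 arrays in limma and 0 over 14, and in titled GFP- libraries 4 and 2. Of the 19505 genes, 908 over 16 and 1518 over 14 arrays were under that unadjusted threshold in titled GFP+, and 1241 and 1472 in titled GFP-. Few genes of any kind passed: 0% in titled GFP+ and 0.0103% in titled GFP- over 16 arrays, and 0.0359% and 0.0256% over 14. A difference that missed the threshold does not show equal levels, and the plot of odor minus vehicle differences gives the interval of each gene.

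Pcdh8 in the titled GFP- libraries came closest among the genes outside the clusters. Its 4 odor values of 12.45, 11.92, 12.02 and 11.72 all exceeded the vehicle values of 11.53, 11.50, 10.93 and 11.62, where 10.93 is vehicle pool 3. Over 16 arrays 814 of the 19505 genes had no overlap in this comparison, 369 of them lower with odor. The Pcdh8 difference was 0.47 (SE 0.20, 95% interval 0.06 to 0.89, adjusted p = 0.594) over 14 arrays and 0.63 (SE 0.28, adjusted p = 0.772) over 16. In titled GFP+ libraries it was 0.08 (SE 0.20, adjusted p = 0.965) over 14 arrays and -0.23 (SE 0.28) over 16. Pcdh7 differed by 0.014 (95% interval -0.40 to 0.42) in titled GFP- and by -0.27 (95% interval -0.68 to 0.14) in titled GFP+ over 14 arrays. Pcdh17 had the smallest p of the genes outside the clusters in titled GFP+ over 14 arrays, at -0.35 (SE 0.25, adjusted p = 0.816).

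In the Pcdhb cluster the smallest p fell to Pcdhb20 in titled GFP- libraries and to Pcdhb15 in titled GFP+ libraries. Pcdhb20 was 0.40 higher with odor (SE 0.19, 95% interval 0.0025 to 0.80, adjusted p = 0.659) over 14 arrays. Its vehicle values of 9.51, 9.70, 9.43 and 9.23 overlapped the odor values through the 9.52 of odor pool 2. Pcdhb15 was at -0.38 (SE 0.19, 95% interval -0.78 to 0.02, adjusted p = 0.674), with titled GFP+ odor values of 6.41, 6.51, 6.91 and 6.64 overlapping the vehicle values of 6.74, 7.02, 7.03 and 7.24. The Pcdhb medians were 0.02 in titled GFP+ and 0.03 in titled GFP- over 14 arrays, against -0.0011 and -0.011 over all genes.

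Pcdh10, the family member left out of the 30, passed here: with odor it was higher by 2.61 (SE 0.32, adjusted p = 0.00587) in titled GFP- and by 2.15 (SE 0.32, adjusted p = 0.0375) in titled GFP+ libraries over 14 arrays. Over 16 arrays the titled GFP- difference was 2.87 (adjusted p = 0.0124) and the titled GFP+ difference of 1.87 did not pass (adjusted p = 0.648).

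**Figure D4:**
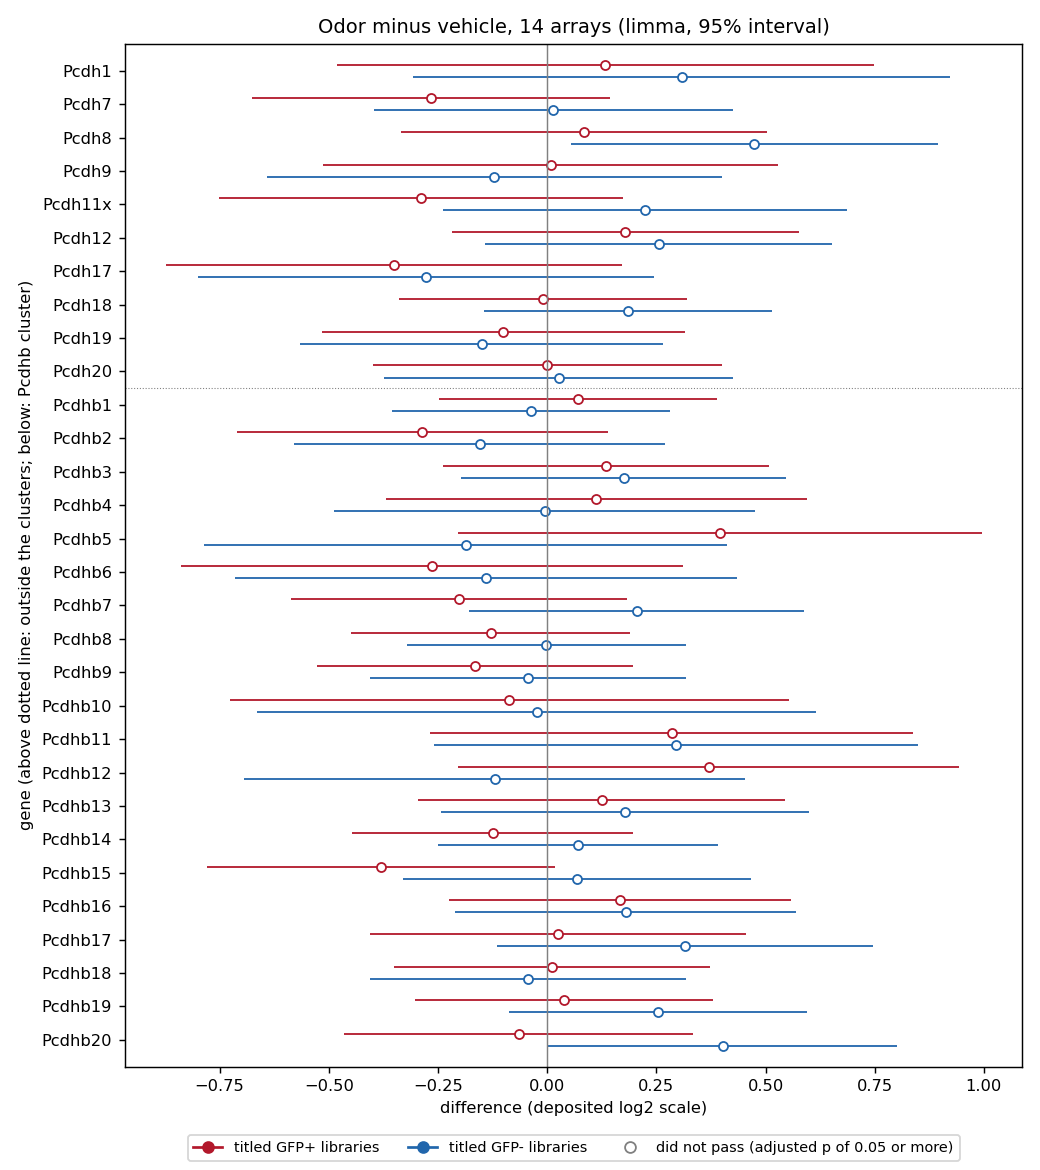
Odor minus vehicle difference (deposited log2 scale, horizontal axis) of each of the 30 protocadherins in titled GFP+ and titled GFP- libraries over 14 arrays, with limma 95% intervals. Every point is open, since none passed at an adjusted p under 0.05, and the point farthest above 0 is Pcdh8 in titled GFP- libraries at 0.47.

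The difference between the odor and vehicle fraction differences passed for no protocadherin, over 16 or 14 arrays. At an unadjusted p under 0.05 in limma there were 3 over 16 arrays, Pcdh8 (-0.87), Pcdhb15 (-0.57) and Pcdhb20 (-0.52), and 0 over 14, where the values were -0.39, -0.45 and -0.47. Of the 19505 genes, 581 over 16 and 523 over 14 arrays were under that unadjusted threshold. Of all genes, 0.00513% passed over 16 arrays and 0.0103% over 14. Over 14 arrays the smallest p belonged to Pcdhb20 in the cluster and to Pcdh11x outside it (-0.51, SE 0.31). The fraction differences of Pcdh7 and Pcdh8 in the 2 treatments thus were not shown to differ.

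Lists of genes that work with protocadherins are read against the 8.59% of all genes that passed as higher and the 4.59% that passed as lower in odor pools over 14 arrays, and the 7.86% and 3.32% in vehicle pools. Of 19 measured regulators of the clustered genes, a list with Ctcf, the cohesin subunits and loaders, DNA methyltransferases and Lhx2, 1 passed in odor pools over 14 arrays: Smchd1, a chromatin protein known to repress clustered protocadherins, was higher in titled GFP+ by 1.22 (SE 0.19, adjusted p = 0.000288), and by 1.13 (SE 0.22, adjusted p = 0.00236) in vehicle pools. The list's median difference was -0.0019 in odor pools, and over 16 arrays 0 passed. Of 15 measured partners in signalling, such as the focal adhesion kinases and the WAVE complex, Marcks passed as higher in odor pools (2.15, SE 0.17, adjusted p = 2.50e-07 over 14 arrays, and 0.0384 over 16). In vehicle pools Marcks, Rac1 and Ptk2b passed as higher and Wasf1, a WAVE subunit, as lower (-0.71, SE 0.18, adjusted p = 0.0149). The median of this list was 0.11 in odor pools.

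Of 46 other cadherins measured, 4 passed as higher in odor pools over 14 arrays and 3 as lower, and over 16 arrays 1 and 3 did. Cdh1, the E-cadherin of epithelia, was higher in titled GFP+ by 4.09 (SE 0.45, adjusted p = 9.61e-06), as were the desmosomal Dsc2 (1.29) and Dsg2 (1.30), and Cdh6 (0.82). Cdh4 (-0.80), Cdh18 (-1.22) and Cdh3 (-1.33) were lower. The median over the list was -0.15. Of 23 measured adhesion and guidance molecules of olfactory axons, 7 passed as lower, among them Sema7a (-0.67), Epha5 (-0.74), Epha7 (-0.53) and Kirrel2 (-0.93), and Sema3a passed as higher (1.01, SE 0.21, adjusted p = 0.00293). Over 16 arrays 5 passed as lower and 1 as higher. The median over that list, -0.35, was near the -0.37 of the Pcdhb cluster. No gene of these 4 lists passed in odor against vehicle, over 16 or 14 arrays.

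Markers of several, though not all, cell types other than mature neurons differed between the fractions. Mature olfactory neuron markers were high in every library, with means over 10 genes of 17.15 to 17.55, and in odor pools over 14 arrays 0 passed as higher and 2 as lower in titled GFP+. Beside the myeloid markers, 8 of 8 microvillar and ionocyte markers passed as higher there (library means of 7.26 to 8.30 against 4.82 to 5.08), and 6 of 7 sustentacular (9.94 to 11.43 against 7.67 to 8.96), 5 of 5 lymphoid (5.96 to 7.85 against 4.21 to 4.54) and 6 of 6 progenitor markers did (6.66 to 7.57 against 4.21 to 5.37). Of 9 immature neuron markers 5 passed as higher (11.46 to 11.86 against 9.84 to 9.99), and of 6 Bowman gland markers 3 did (7.78 to 9.27 against 5.72 to 6.95). The 5 genes raised by activity in these neurons, a list that includes S100a5 and Pcdh10, all passed as lower (12.96 to 13.42 against 14.33 to 14.81). Of 4 fibroblast markers 1 passed as higher, of 5 horizontal basal markers 1 as lower, and of 5 glial markers 0. None of 6 endothelial markers had a group mean above the negative median. In vehicle pools over 14 arrays 7 of 7 myeloid (12.03 to 12.61 against 6.25 to 7.27) and 8 of 8 microvillar and ionocyte markers (7.40 to 7.89 against 4.96 to 5.12) passed as higher, and 5 of 5 activity-raised genes as lower (11.99 to 12.36 against 13.51 to 13.75). Other lists passed there in part: 5 of 7 sustentacular, 4 of 5 lymphoid, 4 of 6 progenitor and 4 of 9 immature neuron markers were higher. So were 4 of 6 Bowman gland markers and 1 of 5 glial markers, and 0 fibroblast, horizontal basal or endothelial markers passed. Over 16 arrays 6 of 7 myeloid, 8 of 8 microvillar and ionocyte, 3 of 7 sustentacular, 4 of 5 lymphoid and 5 of 6 progenitor markers passed as higher in odor pools and 2 of 5 activity-raised genes as lower, and in vehicle pools 0 of any list did. Vehicle pool 3 had the reverse order, with a myeloid mean of 5.91 in its titled GFP+ and 10.32 in its titled GFP- library. Its microvillar and ionocyte means were 4.67 and 7.52, and those of the activity-raised genes 13.90 and 12.67. The part of all these markers in the protocadherin differences was not tested.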

How the data were processed

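The authors deposited 1 table of log2 values. The submitters' processing notes name Affymetrix Expression Console, while version, summarization and build are not given in the sources that were used. Library medians were 6.13 to 6.45, and 5222 of the 28846 probe sets are negative ones. Arrays have no read depth, so their number limits the precision. Symbols are those of the platform annotation, and probe sets with no symbol or with several symbols were left out of the gene table. The probe set with the highest mean stood for each of 55 genes that had several probe sets. No filter on low values was applied, and groups followed the titles.

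limma (version 3.58.1, R 4.3.3) fitted 1 two-sided model of 4 group means with eBayes, adjusted by Benjamini-Hochberg over all genes and checked on simulated data. For simulated odor fraction differences, 59% of those of size 1 were recovered over 16 and over 14 arrays. Of those of size 2, 90% and 97% were, and 5.7% and 5.5% of calls were false. The simulated libraries were not linked by pool, and no pool was reversed. As an alternative the pool of mice was a fixed block for fraction differences and a random one for odor against vehicle (duplicateCorrelation 0.0134 over 16, 0.131 over 14 arrays). Both libraries of a pool hold the same mice per the labels, and their deviations from the group means correlated at 0.13 to 0.25 in odor and -0.75 to -0.06 in vehicle pools. Further alternatives were centring, quantile normalization, means of probe sets, a filter at the negative median in at least 4 arrays, eBayes with trend and robust settings, only the groups compared, and each array left out.

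Named with values were the genes outside the clusters, Pcdhb genes that passed anywhere, the Pcdhb probe sets of highest and lowest mean (Pcdhb1 and Pcdhb10, a rule of choice and no ranking of expression), the smallest p of each class in each comparison, up to 4 passing genes of each list, S100a5 and Pcdh10. Pcdhb5, single pools of other genes and further list genes were added after their values were seen. The genes, the lists and the set of 14 arrays were chosen with earlier results of these data known. Promoters came from RefSeq.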

Additional observations from a re-analysis of the deposited data

Results flagged for a closer look

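Within the 4 libraries of a group, 1 library stood apart from the others, by Dixon's test at the 95% level, for 6 of the 120 combinations of gene and group, and chance gives about 1 in 20. Vehicle pool 3 accounted for 3 of them. Its titled GFP- library read 10.93 for Pcdh8, where the others read 11.51 to 11.62, and 8.75 for Pcdh11x, where the others read 6.83 to 7.14. Its titled GFP+ library read 5.83 for Pcdhb2, where the others read 5.36 to 5.43. Odor pool 1 accounted for a further pair in titled GFP+, with 8.79 for Pcdh9 (the others 8.35 to 8.42) and 6.92 for Pcdhb8 (the others 7.39 to 7.42). The titled GFP- library of vehicle pool 4 read 8.42 for Pcdhb5 (the others 7.54 to 7.61).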

How the results depend on the processing

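Over 16 arrays the 8 protocadherins that passed in odor pools became 0 with the pool as a block (2 of all genes passed), 21 after centring each array (5741 of all genes), 4 with eBayes trend and robust settings, and 0 to 9 with 1 library left out (0 without any odor library except titled GFP+ 4, 3 without that, and 4 without vehicle titled GFP- 1, GFP+ 2 or GFP+ 4). The 0 of vehicle pools became 4 without vehicle pool 3 and 0 to 1 with 1 library left out, the 1 without its titled GFP+ library. Over 14 arrays the 9 of odor pools became 23 after centring (10078 of all genes) and 5 to 9 with 1 library left out, the lowest without titled GFP+ odor library 2. The 4 of vehicle pools became 19 after centring (8397 of all genes), 7 after quantile normalization (2656), 5 with the pool as a block (2314), and 2 to 5 with 1 library left out, the lowest without titled GFP+ libraries 1 or 2 or titled GFP- library 4. Centring moved the median fraction difference of all genes from -0.08 to -0.43 in odor and from -0.10 to -0.46 in vehicle pools. Pcdh7 and Pcdh8 passed in both treatments, and Pcdhb2, Pcdhb13 and Pcdhb20 in odor pools, under every alternative run over 14 arrays. The uncalled difference of fraction differences of Pcdh11x over 16 arrays (0.03) turned to -0.13 after centring, -0.073 after quantile normalization and -0.51 without vehicle pool 3, and lay between -0.40 and 0.24 with 1 library left out. The block changed over 14 arrays the calls of Pcdhb3, Pcdh18, Pcdh17 and Pcdhb5 and no other protocadherin. The counts of 0 for odor against vehicle and for the difference of fraction differences stood under all alternatives. The cause of these shifts was not tested.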
